A study of Mus musculus with 16 samples.

Results

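Kinesins are motor proteins that walk along microtubules or trim their ends. The family was taken as every gene whose symbol in the RNA table begins with Kif followed by a digit or the letter c, with a mean count above 0. That gave 41 genes of the 19049 with a mean count above 0, and 71 of 13083 m6A peaks, in 24 of the 41 genes. N6-methyladenosine (m6A) is a methyl mark on internal adenosines of RNA. The samples were bone of wild type mice, taken after a sham operation (libraries titled NC) or after ovariectomy, removal of the ovaries (titled OVX). Each arm had 4 input libraries, which hold RNA before the pull-down, and 4 IP libraries, which hold RNA pulled down with an m6A antibody. The treatment label reads ovariectomy for all 8 IP libraries, also for those titled NC, and the title was followed here. The labels do not say whether numbered libraries came from separate animals, so the deposited p-values may measure technical spread.

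Motors that carry cargo, such as kinesin-1 (Kif5), kinesin-2 (Kif3) and kinesin-3 (Kif1, Kif13, Kif16), move vesicles, organelles and proteins toward microtubule plus ends. A second set works in dividing cells, where Kif11 pushes spindle poles apart and Kif23 and Kif20a build the midzone used in cytokinesis. In bone marrow, which is rich in dividing blood cell precursors, RNA of the mitotic set marks cell division. The genes were put in 4 classes, with 12 mitotic, 15 cargo transport, 6 cilia and Hedgehog and 8 microtubule length or other members.

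Both deposited tables hold comparisons made by the authors, and neither has a column for a single library. A fold change is therefore given as log2 value ± its standard error (SE). Its sign is the deposited one, because the tables do not name the arm in the numerator. Mean counts are counts scaled by library size factors and averaged over the libraries of the RNA comparison. These were taken to be the input libraries, which the column headers do not state. They grow with transcript length as well as with RNA level, so they are not compared between genes as levels. A gene was counted as called where the adjusted p was under 0.05. Bone markers were present, with Col1a1 at a mean count of 99868 and Ibsp, a bone matrix protein, at 36219 in the authors' deposited table. RNA of other tissues was present too. Mean counts reached 336368 among skeletal muscle markers and 311988 among erythroid markers in the authors' deposited table. In RNA from whole bone, fewer cells of a type and less RNA per cell cannot be told apart.

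The mitotic and cargo classes had mostly opposite signs. All 12 mitotic kinesins were positive, at a median of 0.24, and 13 of 15 cargo kinesins were negative, at a median of -0.23, in the authors' deposited table. The median over all 15396 tested genes was -0.02, and 8209 of them were negative, in the authors' deposited table. Of the 7184 with a mean count of at least 1000, 3840 were positive in the authors' deposited table. Mean counts of the cargo kinesins reached down to 69.6, and those of the mitotic kinesins to 690, in the authors' deposited table. The upper quartile of the cargo values was -0.04, so part of the negative ones lay near 0. The classes were chosen with earlier results of these data known, and the difference between them was not tested. Of the 39 kinesins with an adjusted p, 1 was called with a positive sign (2.56%, against 6.07% of all tested genes) and 6 with a negative sign (15.4%, against 6.11%) in the authors' deposited table. Among genes with a mean count of at least 1000, 9.01% were called positive and 6.49% negative over all genes, and 1 and 5 of 23 kinesins, in the authors' deposited table. A share of called genes in a family of this size moves by several points with a single gene.

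**Figure D1:**
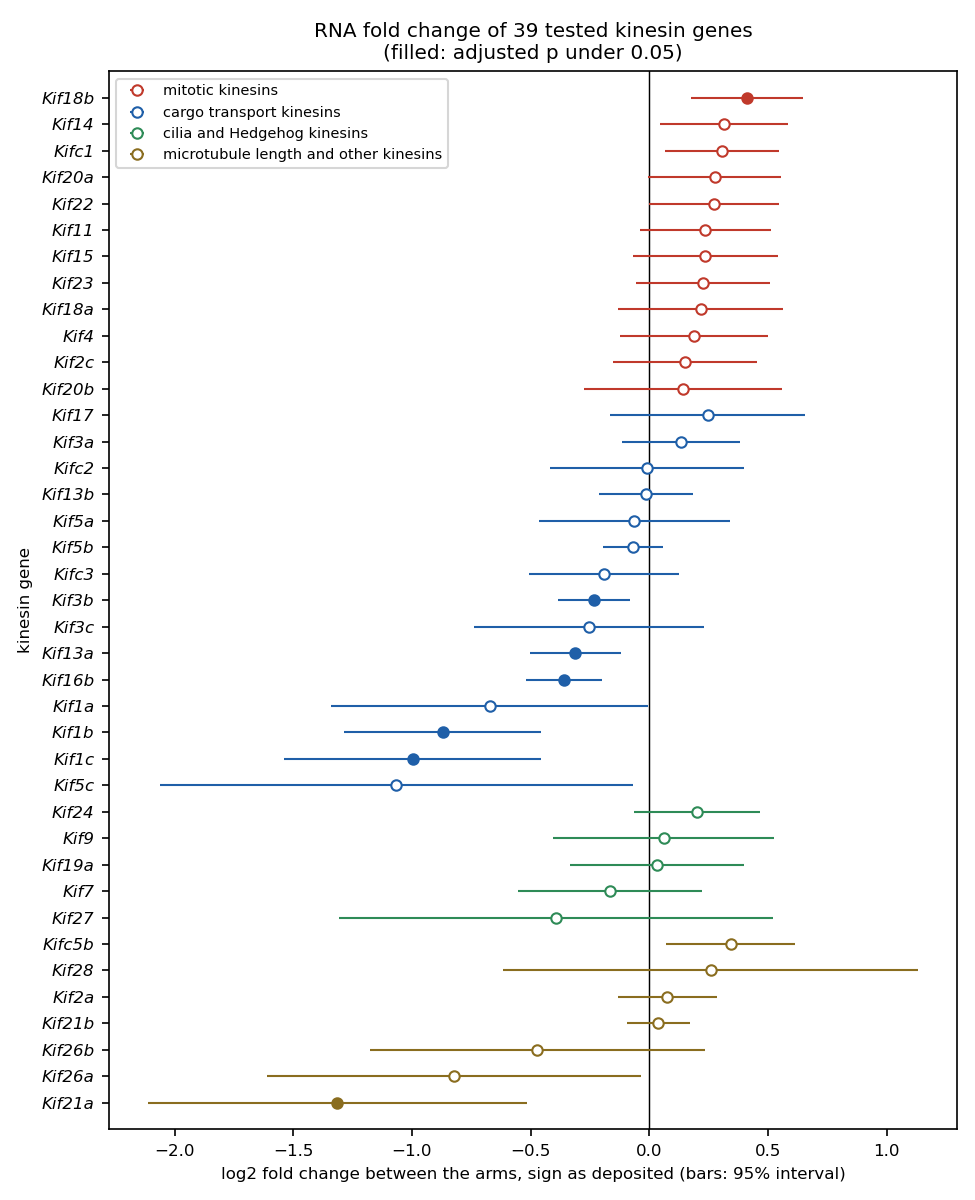
Log2 fold change (x axis, sign as deposited) of the 39 kinesin genes with an adjusted p (y axis), with 95% intervals as bars and colours for the 4 classes. Filled points have an adjusted p under 0.05. The 12 mitotic genes lie between 0.14 and 0.41, and the cargo genes reach from -1.07 to 0.25.

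The promoter sequences below are shown because the mitotic members had 1 sign in common. Of the 41 genes, 32 had a window in the RefSeq table of promoters (GRCm38.p6), which runs from 250 bases before to 50 after the start of a transcript. Kif5a, Kif5b, Kif13b, Kif19a, Kif20a, Kif21b, Kif28, Kifc2 and Kifc3 had none. The windows were searched on both strands for TTTGAA, the cell cycle genes homology region at which MuvB complexes hold cell cycle genes off or switch them on, and for CCAAT, the box bound by NF-Y. Neither motif contains the other. TTTGAA was found in 10 of 11 mitotic kinesins, in 4 of the 21 other kinesins and in 20.2% of all 27025 genes with a window. CCAAT was found in 7 of 11, in 8 of 21 and in 41.1%. Both motifs stood in 7 of 11, in 3 of 21 and in 7.97%. The 4 other kinesins with TTTGAA were Kif1a, Kif26b, Kif27 and Kifc5b, the last a close copy of the mitotic Kifc1.

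From 100 bases before to 10 after the start, 6 of 11 mitotic windows held TTTGAA, against 3 of 25 windows of other kinesins and 6.18% of all 32851 windows. Those 6 are printed first, 5′ to 3′ on the gene's strand, with capitals for CCAAT or TTTGAA in either orientation (ATTGG and TTCAAA are the opposite strand):
Kif18b (chr11:102925115-102925224, minus strand): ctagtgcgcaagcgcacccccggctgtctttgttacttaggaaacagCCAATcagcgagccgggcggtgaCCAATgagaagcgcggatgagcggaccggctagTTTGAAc
Kif11 (chr19:37376282-37376391, plus strand): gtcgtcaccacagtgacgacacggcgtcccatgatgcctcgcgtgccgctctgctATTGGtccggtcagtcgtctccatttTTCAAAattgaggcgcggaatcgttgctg
Kif22 (chr7:127042411-127042520, minus strand): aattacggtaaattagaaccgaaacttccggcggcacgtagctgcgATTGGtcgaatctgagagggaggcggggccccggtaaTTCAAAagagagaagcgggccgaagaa
Kif23 (chr9:61946790-61946899, minus strand): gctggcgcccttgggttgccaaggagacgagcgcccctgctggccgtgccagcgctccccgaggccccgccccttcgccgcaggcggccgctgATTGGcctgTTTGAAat
Kifc1 (chr17:33890624-33890733, minus strand): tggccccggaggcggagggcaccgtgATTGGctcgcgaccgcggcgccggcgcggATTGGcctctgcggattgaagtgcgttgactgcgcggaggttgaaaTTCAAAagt
Kif15 (chr9:122950981-122951090, plus strand): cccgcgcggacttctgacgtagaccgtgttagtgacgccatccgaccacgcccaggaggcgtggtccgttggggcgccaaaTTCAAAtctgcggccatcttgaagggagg
The TTTGAA letters began 19 bases before the start in Kif11 and Kif15, 17 before it in Kif22, and at base 2, 3 and 4 of the transcript in Kifc1, Kif23 and Kif18b. Only the Kif15 stretch of these 6 had no CCAAT. Of the 6 kinesins called with a negative sign, Kif1b and Kif3b held CCAAT in the window, and Kif1c, Kif13a, Kif16b and Kif21a held neither motif. Most genes with a window lacked each motif (20.2% held TTTGAA and 41.1% CCAAT), so a lack of motifs is no result about these 6. The same stretch is given for Kif1c and Kif16b, as examples without either motif:
Kif1c (chr11:70700448-70700557, plus strand): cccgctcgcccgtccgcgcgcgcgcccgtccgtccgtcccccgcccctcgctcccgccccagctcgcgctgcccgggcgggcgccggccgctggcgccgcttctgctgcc
Kif16b (chr2:142901455-142901564, minus strand): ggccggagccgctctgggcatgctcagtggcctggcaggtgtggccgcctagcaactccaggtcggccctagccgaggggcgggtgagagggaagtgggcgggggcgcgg
A match of letters is a description and not a bound site, and no binding was measured here.

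Kif18b, a kinesin-8 motor that trims astral microtubules, was the called positive kinesin. It stood at 0.41 ± 0.12 (adjusted p = 0.0107) at a mean count of 2455 in the authors' deposited table, a ratio of 1.33 between the arms. Its relative Kif18a, which aligns chromosomes by damping their oscillation, had 0.22 ± 0.18 in the authors' deposited table. The values of Kif18b and Kif18a were both positive, and the SE of Kif18a was large enough for its interval to span 0.

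Of the mitotic kinesins with large mean counts, Kif11, the tetrameric motor that separates spindle poles, had 0.24 ± 0.14 (adjusted p = 0.289) in the authors' deposited table. Kif23, the motor of centralspindlin, had 0.23 ± 0.14 (adjusted p = 0.318) in the authors' deposited table. Neither passed the threshold, and both 95% intervals included 0.

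Kifc1, a minus-end motor that focuses spindle poles, had 0.31 ± 0.12 (adjusted p = 0.078) in the authors' deposited table. Its near-identical copy Kifc5b had 0.34 ± 0.14 (adjusted p = 0.0832) in the authors' deposited table. Reads could be split between these copies, so neither value is certain for its gene. Kif14, which acts in cytokinesis with citron kinase, had 0.31 ± 0.14 (adjusted p = 0.118) in the authors' deposited table. Kif22, a chromokinesin on chromosome arms, had 0.27 ± 0.14 (adjusted p = 0.194) in the authors' deposited table. The unadjusted p of these 4 genes was under 0.05 and the adjusted p was not.

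The other 5 mitotic members had 95% intervals that included 0. Kif20a, which carries the chromosome passenger complex to the midzone, stood at 0.28 ± 0.14 in the authors' deposited table. Kif15, a spindle motor that can stand in for Kif11, stood at 0.24 ± 0.16 and the chromokinesin Kif4 at 0.19 ± 0.16 in the authors' deposited table. Kif2c, which takes apart microtubules at centromeres, stood at 0.15 ± 0.15 and Kif20b, a motor of late cytokinesis, at 0.14 ± 0.21 in the authors' deposited table. These values lay within 1 median SE of the class (0.14) of the class median.

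Partners of the mitotic motors had the same sign. All 19 spindle and midbody genes tested were positive, at a median of 0.27, and 5 were called (26.3%, against 6.07% of all tested genes called positive) in the authors' deposited table. Cit, the citron kinase that binds Kif14, stood at 0.43 ± 0.11 (adjusted p = 0.0026) and Plk1, the mitotic kinase that docks on midzone kinesins, at 0.51 ± 0.13 (adjusted p = 0.0029) in the authors' deposited table. Numa1, which anchors spindle poles, stood at 0.26 ± 0.06 and Aurka, a spindle pole kinase, at 0.41 ± 0.14 in the authors' deposited table. Cenpe, the kinesin-7 of kinetochores whose symbol lies outside the family rule, had 0.32 ± 0.16 (adjusted p = 0.186) in the authors' deposited table. All 16 markers of proliferating cells were positive (median 0.29, 4 called, 25%) in the authors' deposited table. Plk1 and Aurka are among those 4. The spindle list also holds them, and shares Aurkb, Birc5 and Tpx2 with the proliferation list, so these lists are not separate. All 11 B cell precursor markers were positive (median 1.96, 10 called, 90.9%) in the authors' deposited table. Of 10 erythroid markers, 9 were positive (median 0.43, 4 called, 40%) in the authors' deposited table. The share called positive was 6.07% over all tested genes and 9.01% over those with a mean count of at least 1000. All spindle, proliferation and erythroid genes listed lay above that count, with lowest mean counts of 2026, 1281 and 2684 in the authors' deposited table. No marker of these 3 lists had a mean count of 0, and the part of these cell types in the kinesin values was not tested.

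Of the 6 called negative kinesins, Kif1b, Kif1c, Kif13a and Kif16b are kinesin-3 motors, which carry vesicles and organelles. Kif1c, a motor of Golgi-derived vesicles and of integrin traffic, stood at -0.997 ± 0.276 (adjusted p = 0.0061) at a mean count of 19211 in the authors' deposited table. Kif1b, which moves mitochondria and synaptic vesicle precursors, stood at -0.87 ± 0.21 (adjusted p = 0.0015) at a mean count of 5212 in the authors' deposited table. The 95% intervals reached from -1.54 to -0.46 for Kif1c and from -1.29 to -0.46 for Kif1b.

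Kif16b, which moves early endosomes, stood at -0.36 ± 0.08 in the authors' deposited table, and its adjusted p of 5.5e-04 was the smallest in the family. Kif13a, which carries recycling endosomes, stood at -0.31 ± 0.10 (adjusted p = 0.0197) in the authors' deposited table. Kif13b, its close relative, had -0.01 ± 0.10 (adjusted p = 0.954) in the authors' deposited table. The interval of Kif13b, from -0.21 to 0.18, overlapped that of Kif13a, and the difference between these paralogs was not tested.

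Among kinesin-2 motors, which serve intraflagellar transport and cytoplasmic cargo, Kif3b was called with -0.23 ± 0.08 (adjusted p = 0.0261) in the authors' deposited table. Its usual partner Kif3a had 0.13 ± 0.13 (adjusted p = 0.538), and Kif3c, which also pairs with Kif3a, had -0.25 ± 0.25 in the authors' deposited table. Kifap3, the non-motor subunit of the Kif3 complex, had -0.27 ± 0.20 in the authors' deposited table. Kif17, the homodimeric kinesin-2, was positive at 0.25 ± 0.21 in the authors' deposited table. Of 20 intraflagellar transport genes, 10 were positive and 10 negative in the authors' deposited table. The 2 called, Ift22 with 0.68 ± 0.15 and Ift80 with 0.53 ± 0.15, were positive in the authors' deposited table. That is 10% called positive and 0% negative, against 6.07% and 6.11% of all tested genes.

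The conventional kinesin heavy chains were not called. Kif5b, the broadly expressed heavy chain, had -0.07 ± 0.06 (adjusted p = 0.537) at a mean count of 15958 in the authors' deposited table, and its interval from -0.19 to 0.06 was among the narrowest of the family. The neuronal heavy chains Kif5a and Kif5c had -0.06 ± 0.21 and -1.07 ± 0.51 (mean counts 168 and 69.6) in the authors' deposited table. The minus-end motors Kifc2 and Kifc3 were not called either, with -0.01 ± 0.21 and -0.19 ± 0.16 in the authors' deposited table. Light chains, which link heavy chains to cargo, were mixed, with Klc1 at -0.06 ± 0.07, Klc2 at -0.44 ± 0.19 and Klc4 at 0.03 ± 0.13, none called, in the authors' deposited table. Klc3 was called at 0.99 ± 0.24 (adjusted p = 0.0011) at a mean count of 86.1 in the authors' deposited table.

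Of the 20 light chain, adaptor and partner genes tested, 3 were called positive and 1 negative (15% and 5%, against 6.07% and 6.11% of all tested genes) in the authors' deposited table. The others beside Klc3 were Jakmip1, a microtubule-binding protein, with 0.89 ± 0.20, Madd, an adaptor of kinesin-3 vesicles, with 0.36 ± 0.09, and Fez2, a relative of the kinesin-1 adaptor Fez1, with -0.47 ± 0.12 in the authors' deposited table. Kifbp, which binds kinesin motor domains and blocks them, had -0.01 ± 0.10 in the authors' deposited table. Cytoplasmic dynein and dynactin, the motor of opposite direction, had 1 positive and 2 negative calls among 27 genes, at a median of -0.01, in the authors' deposited table. That is 11.1% called, against 12.2% of all tested genes. Dctn6 and Hook1 were negative (-0.37 ± 0.09 and -0.40 ± 0.14) and Dctn5 was positive (0.18 ± 0.06) in the authors' deposited table.

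Kif21a, a kinesin-4 that restrains microtubule growth, had the lowest value of the 39, with -1.31 ± 0.41 (adjusted p = 0.0173) at a mean count of 490 in the authors' deposited table. Kif21b, its paralog, had 0.04 ± 0.07 (adjusted p = 0.764) at a mean count of 19524, the highest of the family, in the authors' deposited table. The 95% intervals did not overlap, from -2.11 to -0.52 for Kif21a and from -0.09 to 0.17 for Kif21b, and the difference was not tested. Kif2a, a kinesin-13 that takes apart microtubule ends, had 0.08 ± 0.11 in the authors' deposited table. The kinesin-11 genes Kif26a and Kif26b, which are atypical and lack motor activity, had -0.82 ± 0.40 and -0.47 ± 0.36, and Kif1a, an axonal vesicle motor, had -0.67 ± 0.34, none called, in the authors' deposited table.

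All 10 skeletal muscle markers were negative at a median of -1.42, with 2 called (20%) and mean counts of 19067 or more, in the authors' deposited table. All 6 nerve and Schwann cell markers tested were negative at a median of -0.66, with 2 called (33.3%), in the authors' deposited table. The neurofilament gene Nefl was at 0 there. The 5 osteoclast markers were negative at a median of -0.35, with 1 called (20%), in the authors' deposited table. Of 7 osteoblast and osteocyte markers, 5 were negative and 2 were called positive (28.6%) in the authors' deposited table. Over all tested genes, 6.11% were called negative and 6.07% positive. The part of these cell types in the negative kinesin values was not tested.

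**Figure D2:**
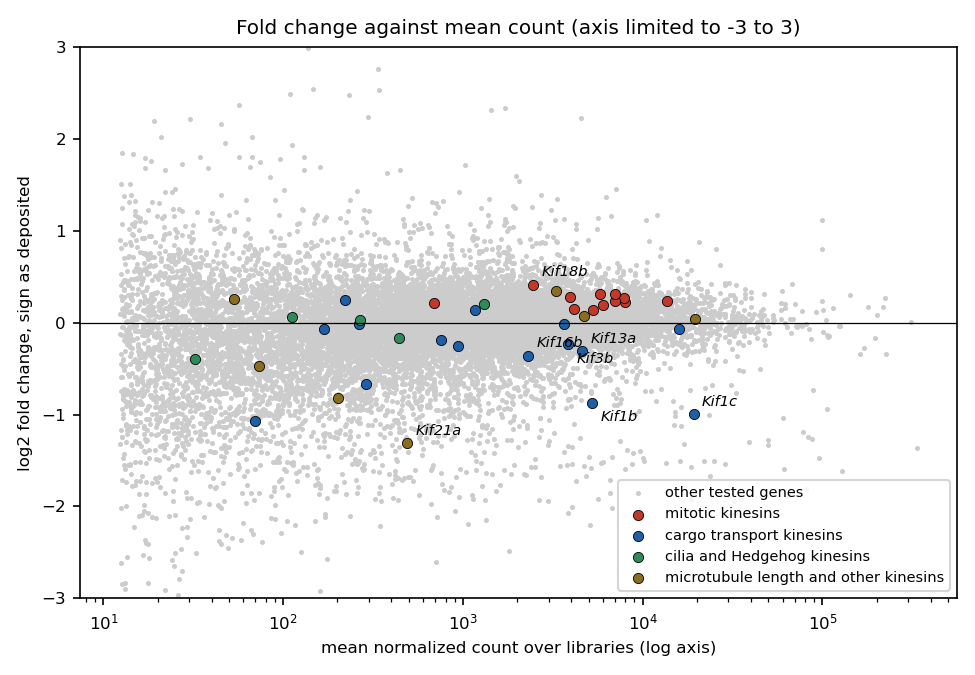
Log2 fold change (y axis, limited to -3 to 3) against the mean normalized count (x axis, log scale) for all tested genes in grey and the 39 kinesins in colour. The 7 called kinesins are named. Kif1c, at a mean count of 19211, lies well below most genes of its range, and the mitotic kinesins form a band above 0.

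No cilia or Hedgehog kinesin was called. Kif24, which restrains the growth of cilia from centrioles, had 0.20 ± 0.13 and Kif7, the Hedgehog pathway kinesin of the cilium tip, had -0.17 ± 0.20 in the authors' deposited table. Kif9, Kif19a and Kif27 lay between -0.39 and 0.06 in the authors' deposited table. Kif28 had a mean count of 53.2 and a value of 0.26 ± 0.45 in the authors' deposited table. For Kif6 and Kif12, the authors' deposited table gives mean counts of 1.01 and 0.957, no adjusted p, and an SE of 3.42 and 3.39. With SEs of this size, their fold changes do not tell whether the arms differed. Kif2b, Kif4-ps and Kif16bos match the symbols and were at a mean count of 0.

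RefSeq lists no other gene that overlaps Kif18b or Kif1b. Small RNA or predicted genes overlap Kif1c, Kif3b, Kif13a, Kif16b and Kif21a. The library kit is stranded, and whether the counting used strand is not given in the sources used here.

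The m6A peaks followed the mean counts. Of kinesins with a mean count from 3000 to 10000, 14 of 15 had a peak, against 71.4% of all 2505 genes in that range. All 4 kinesins above 10000 had one, against 73.1% of 836 genes. From 1000 to 3000 it was 2 of 4 kinesins, against 60.3% of 3845 genes, and from 100 to 1000 it was 4 of 12, against 35.0% of 5548 genes. From 10 to 100 it was 0 of 4, against 175 of 2918 genes, and below 10 it was 0 of 2, against 10 of 3397 genes. Over all counts, 24 of 41 kinesins (58.5%) and 35.9% of genes had a peak. The gene without a peak between 3000 and 10000 was Kif22, at 7859 counts, and Kif18b, at 2455, had none either. A gene with no listed peak may still carry m6A below the caller's limit.

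**Figure D3:**
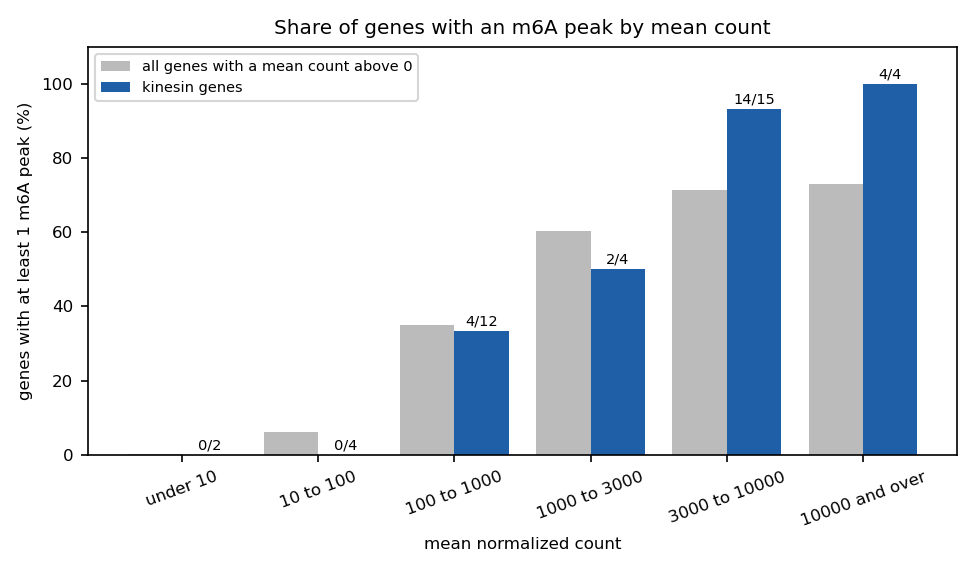
Share of genes with at least 1 m6A peak (y axis, percent) by class of mean normalized count (x axis), for all genes in grey and kinesins in blue, with the number of kinesins above the bars. Both rise with the mean count, and 14 of 15 kinesins between 3000 and 10000 had a peak.

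Kinesin peaks were often several to a gene and spread over several exons. Of the 24 genes with a peak, 8 had 4 or more, against 10.5% of all 6847 genes with a peak, and 4 had 1, against 53.8%, in the authors' deposited table. Kif15 carried 7 peaks, Kif21b 6 and Kif20b 5, and Kif2a, Kif3b, Kif4, Kif13b and Kif14 carried 4 each in the authors' deposited table. At least 2 exon blocks were spanned by 48 of the 71 kinesin peaks (67.6%), against 40.1% of all peaks, in the authors' deposited table. Among the 34 mitotic peaks, 19 spanned 3 or more blocks (55.9%), against 17.6% of all peaks, in the authors' deposited table. All genes and all peaks were not matched to the kinesins for mean count or transcript length in these comparisons. No cilia or Hedgehog kinesin had a peak.

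The enrichment of IP over input had a median of 1.87 over kinesin peaks, against 1.82 over all peaks, and 30 of 71 (42.3%) reached 2, against 37.3%, in the authors' deposited table. The 2 highest peaks lay next to each other in Kif20b, with enrichments of 3.70 (chromosome 19, 34941383 to 34950103, plus strand) and 3.09 (34950253 to 34968131) in the authors' deposited table. Together with the gene's 3 other peaks they covered 2844 exonic bases, the most of any kinesin, and the second of them had 9 blocks, the longest of 722 bases. The next Kif20b peak upstream had an enrichment of 2.83, whereas the last toward the 3′ end had 1.58 in the authors' deposited table.

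Kif4 followed with 2.89 over 6 blocks (chromosome X, 100694922 to 100711930) in the authors' deposited table. Kif14 had 2.80 in a single block of 899 bases (chromosome 1, 136468098 to 136468996), the longest block of any kinesin peak, and Kif1b had 2.80 in a block of 400 bases (chromosome 4, 149237828 to 149238227, minus strand) in the authors' deposited table. Kif1c, whose mean count was among the highest, had 2 peaks of 1.68 and 1.55 in the authors' deposited table. The lowest kinesin enrichments were 1.13 in Kif3b and 1.16 in Kif21b and Kifc3 in the authors' deposited table. The peak table gives gene, strand and blocks, and whether a block is coding or untranslated was not analysed here.

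**Figure D4:**
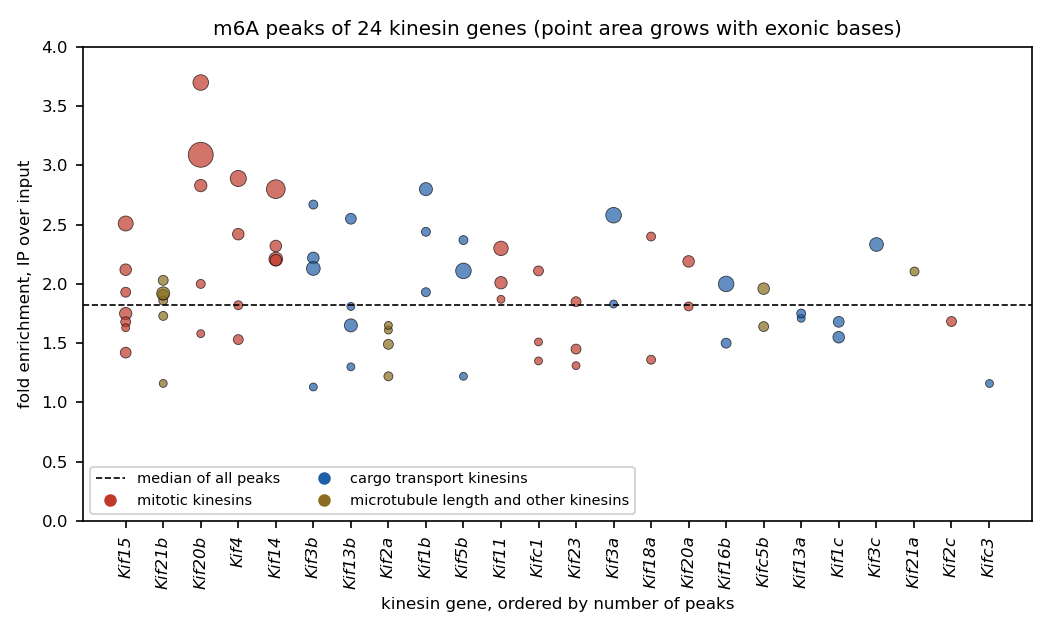
Fold enrichment of IP over input (y axis) for each of the 71 m6A peaks of 24 kinesin genes (x axis, ordered by number of peaks). Point area grows with the exonic bases of the peak, colours give the class, and the dashed line is the median of all peaks, 1.82. Kif20b holds the highest points, at 3.70 and 3.09.

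Neighbouring peaks are not always separate calls. In 22 of 71 kinesin peaks (31.0%), against 23.9% of all peaks, the p against input was the same, to the 3 digits given, as that of a neighbouring peak in the gene in the authors' deposited table. The first 3 peaks of Kif3b shared a log10 p of -6.72 and were 98 bases apart, and the last 3 of Kif15 shared -15.3 in the authors' deposited table. The number of peaks in a gene is therefore not a number of independent sites.

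The m6A difference between the arms was about as large in kinesin peaks as in all peaks. The median absolute log2 difference was 0.149 against 0.144 in the authors' deposited table. The log2 difference was positive in 49 of 71 peaks (69.0%), against 60.6% of all peaks, at a median of 0.10 against 0.05 in the authors' deposited table. With 1 value a gene, the median over its peaks, the kinesin median was 0.06. Input libraries, if the RNA comparison rests on them as taken here, enter both comparisons. Values of the 2 tables are therefore set side by side and not correlated. With a difference p under 0.05, 2 kinesin peaks were called positive (background 3.6% of all peaks) and 0 negative (background 1.32%) in the authors' deposited table. These p-values are not adjusted, and 2 of 71 is close to the share over all peaks. At an FDR under 0.05 it was 1 of 71 kinesin peaks, against 0.0229% of all peaks (3 of 13083), in the authors' deposited table.

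The called peak with a plain p was in Kif3a (chromosome 11, 53584310 to 53594298, plus strand). It spanned 6 blocks and 601 bases, had an enrichment of 2.58, and differed by 0.32 between the arms (p = 0.0148, log10 FDR of -0.126, so not called at an FDR under 0.05) in the authors' deposited table. The other Kif3a peak, of 101 bases, had a difference of -0.58 (p = 0.342) in the authors' deposited table. The last peak of Kif15 (chromosome 9, 123009866 to 123017688) had 0.27 at p = 0.0501, just outside the threshold, and the 2 highest Kif20b peaks had 0.14 (p = 0.0741) and 0.17 (p = 0.0631) in the authors' deposited table.

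The other called peak lay in Kif21b (chromosome 1, 136144726 to 136145134). It was one of the weakest kinesin peaks, with an enrichment of 1.16 over 101 bases in blocks of 96 and 5, and a difference of 0.05, which is larger than that of only 19.2% of all peaks, in the authors' deposited table. The log10 p and the log10 FDR were both -434, and the next smallest log10 p of the table was -8.11 in the authors' deposited table. The value -434 equals, to the digits given, the base 10 logarithm (-434.29) of e raised to the power of minus 1000. An FDR over 13083 peaks would lie 4.12 log10 units above the smallest p, and here both were the same. The p of this peak was not used as a measure of strength, and why it took this value was not tested. The other 5 Kif21b peaks had differences between -0.08 and 0.15 in the authors' deposited table, with p from 0.209 to 0.675.

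**Figure D5:**
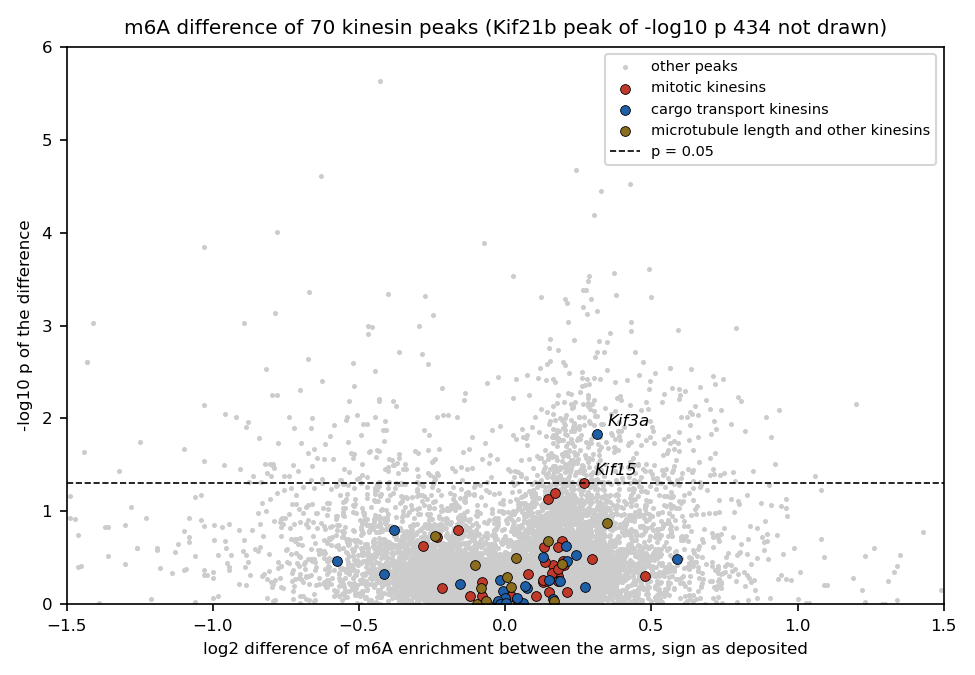
Log2 difference of m6A enrichment between the arms (x axis, sign as deposited, limited to -1.5 to 1.5) against -log10 of its p (y axis) for all peaks in grey and 70 kinesin peaks in colour. The Kif21b peak with log10 p of -434 is not drawn. Kif3a lies above the dashed line that marks the threshold, and the last Kif15 peak sits just under it.

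The kinesins called in RNA are set beside their m6A values here. Kif18b had no peak, and the other 6 had 14 peaks, of which 0 had a difference p under 0.05, against 3.6% of all peaks called positive and 1.32% called negative in the authors' deposited table. That count is near the background and no result about these genes. Kif1b, negative in RNA, had 3 peaks with differences of 0.07, -0.15 and 2.5e-05, and Kif1c had -0.02 at both of its peaks in the authors' deposited table. Kif16b had -0.38 (p = 0.16) and -0.01, and Kif13a had -0.41 (p = 0.475) and 0.21 in the authors' deposited table. Kif3b had 4 positive differences, from 0.13 to 0.59, with p from 0.239 to 0.661 in the authors' deposited table. The 1 peak of Kif21a differed by 0.17 (p = 0.917) in the authors' deposited table. These are p-values of single peaks without correction, and a p over the threshold does not show that the arms were alike.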

How the data were processed

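The authors deposited 1 table of RNA comparisons and 1 of m6A peaks, for 8 input and 8 IP libraries of mouse bone in 4 groups of 4. Tools named in the submitters' processing notes are HISAT2, StringTie and DESeq, with the rat build rn6 and no roles. The samples are mouse, and peak coordinates are printed as deposited, counted from 1; their build is not stated.

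Per the file headers, the RNA table gives each gene a mean count signal (normalized), the Wald score, its log2 fold change and SE, and p-values before and after adjustment. For 15396 genes the adjusted value was the Benjamini-Hochberg one, down to a mean count of 12.4. Per the file headers, the peak table holds log10 values of the p and FDR of each peak against input, the fold enrichment as a ratio, the number of exon blocks, and the log2 difference between the arms with the log10 p and FDR of the difference, entered as a score. Neither the authors' peak caller nor any pooling of replicates is stated, and depth per library is unknown.

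No test was run here. Counts and medians were computed with pandas 2.3.3 and numpy 2.4.6 on Python 3.11.15, 95% intervals as the fold change ± 1.96 SE, and figures with matplotlib 3.10.9. Calls of peaks used a difference p under 0.05. Gene classes and lists were chosen with earlier results of these data known. By the rule for named genes all members are covered, with called partners by smallest p (at most 4 a list); further partners and markers (Kifap3, Kifbp, Klc1, Klc2, Klc4, Cenpe, Nefl, Ibsp) were chosen after their values were seen. Promoter sequences are RefSeq's, matched by symbol; sequences of peaks and proteins are not shown.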

Additional observations from a re-analysis of the deposited data

How the results depend on the processing

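No paired analysis was possible because the tables hold no value for a single library, and for the same reason no library could be left out. Of 31 alternatives over 10 results, 22 were scored as the same. These were unchanged counts, and medians or a share that kept their sign and lay inside an interval taken over kinesin genes or peaks. Such an interval treats genes or peaks as separate draws and measures neither the SE of a value nor spread between libraries. The called positive kinesins went from 1 to 0 at an adjusted p under 0.01, and to 0 when the size of the log2 fold change had to reach 0.5. The called negative kinesins went from 6 to 3 under each of these settings. Called positive m6A peaks went from 2 to 1 at a difference FDR under 0.05, at a p under 0.01 and with an enrichment of at least 2; at the first and second of these settings the 1 left was the Kif21b peak with log10 p of -434, and at the third the Kif3a peak. The median fold change of all kinesins, 0.04, changed sign as a mean weighted by 1/SE squared, to -0.0057, so no direction is given for the family as a whole. Members with a peak went from 58.5% to 41.5% with an enrichment of at least 2. The lower counts follow from the stricter thresholds. The change of sign went with both a mean in place of a median and the weights, and the cause was not tested. The median m6A difference of kinesin peaks, 0.10, was 0.06 with 1 value a gene. Without counts per library, depth cannot be set beside any value.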
